A study of Mus musculus with 12 samples.

Results

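Small leucine-rich proteoglycans (SLRPs), the large proteoglycan versican (*Vcan*) and matrix Gla protein (*Mgp*) were followed in RNA sequencing of ATDC5 cells. The 10 genes were taken by symbol from a table of 46731 genes: the class I SLRPs biglycan (*Bgn*), decorin (*Dcn*) and asporin (*Aspn*), the class II SLRPs fibromodulin (*Fmod*), lumican (*Lum*), osteomodulin (*Omd*) and *Prelp*, the class III SLRP osteoglycin (*Ogn*), and *Vcan* and *Mgp*. ATDC5 is a mouse teratocarcinoma line used as a model of cartilage formation. All cultures carried a lentiviral hairpin cassette integrated in their genome, either a negative control (shRNA-NC) or 1 hairpin against the RNA helicase *Ddx5* (shRNA-*Ddx5*). The groups were shRNA-NC in medium without stimulation, shRNA-*Ddx5* in medium, shRNA-NC with IL-1β and TNF-α, and shRNA-*Ddx5* with IL-1β and TNF-α, each collected at 6 h in 3 biologically independent replicates. The cells were stable lines, and whether they were clones is not given in the sources used here. A single hairpin per target was used, so effects of the hairpin sequence and of the loss of *Ddx5* cannot be told apart. The comparisons asked how the loss of this helicase, the cytokines and both together changed the transcripts of these matrix genes.

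SLRPs are secreted proteins with a core of leucine-rich repeats that bind collagen and set how thick its fibrils grow. Decorin and biglycan carry chondroitin or dermatan sulfate chains, fibromodulin, lumican and osteomodulin keratan sulfate. In cartilage and bone they also hold growth factors in the matrix, TGF-β among them. Versican binds hyaluronan and is a feature of loose and early mesenchymal matrix, whereas MGP is a small protein that needs vitamin K-dependent carboxylation and keeps cartilage and vessel walls from calcifying.

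Expression was deposited as FPKM, the number of fragments scaled by gene length and library, which allows levels to be set side by side between genes. The whole fragments behind each value could be recovered and numbered 14119199 to 19276520 per library. In medium *Ddx5* measured 294 to 337 FPKM in shRNA-NC and 90.7 to 118 in shRNA-*Ddx5* libraries. With cytokines it measured 301 to 327 and 93.6 to 104 FPKM, and the hairpins did not overlap. Of 15 cartilage markers 5 passed the expression filter: *Sox9* stood at 27.5 ± 0.327 FPKM (SD, n = 3) and *Col2a1* at 12.4 ± 3.05 (SD, n = 3) in shRNA-NC cells in medium, *Cnmd* had no fragment, and *Acan* stood at no more than 0.0325 FPKM in any library. The cells thus carried some cartilage transcripts and lacked others that define the tissue. Replicate 2 of shRNA-NC with cytokines stood apart from the other replicates of its group: it held the highest value of that group for 64 of 74 genes (86.5%) that rose by at least 2 log2 units upon knockdown with cytokines, against 30.8% of all 12368 genes tested. It was also the highest of its group for 8 of the 10 genes described here, all but *Ogn* and *Vcan*. For *Bgn* it stood only 1.02 times the mean of the other replicates, and for *Fmod* it held 2 fragments as replicate 3 did. Values without it are given for the counts of members, for *Dcn*, *Mgp* and the fragments of *Lum*, and for the interaction of *Omd*. Other values hold it unless stated.

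Differences were fitted on log2(FPKM + 1) by limma over all 12 libraries, for the 12368 genes with at least 1 FPKM in at least 3 libraries, with Benjamini-Hochberg adjustment of p over all of them and calls at an adjusted p under 0.05. This scale understates changes of genes near or below 1 FPKM. *Lum* and *Prelp* did not pass the filter and have values from a fit without it. *Dcn* and *Fmod* passed only through shRNA-*Ddx5* libraries and *Vcan* only through cytokine libraries, so the counts of tested members are a description. Upon *Ddx5* knockdown in medium, *Bgn*, *Dcn*, *Aspn*, *Fmod*, *Ogn* and *Mgp* rose, 6 of the 8 tested members beside 25.3% of all genes, and *Omd* fell, 1 of 8 beside 21.7%. With cytokines the same 6 names rose upon knockdown, beside 23.5% of all genes, and none of the 8 fell, beside 22.1%. The cytokines themselves lowered *Bgn*, *Aspn*, *Omd* and *Ogn* in shRNA-NC cells (4 of 8 beside 15.2%) and raised *Vcan* (1 of 8 beside 18.6%). In shRNA-*Ddx5* cells they lowered *Bgn*, *Aspn*, *Fmod*, *Omd* and *Ogn* (5 of 8 beside 13.5%) and raised *Vcan* and *Dcn* (2 of 8 beside 13.5%). On the log2(FPKM + 1) scale the knockdown effect differed between the media for *Dcn* (1 of 8 higher beside 3.46% of all genes, none lower beside 4.75%). Without replicate 2 of shRNA-NC with cytokines, 6 members passed upon knockdown in medium in place of 7, 6 upon knockdown with cytokines as before, 6 and 8 upon cytokines in shRNA-NC and shRNA-*Ddx5* cells in place of 5 and 7, and 2 differed between the media in place of 1. The comparisons share libraries pairwise and are not independent of each other.

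The ranges of both hairpins stayed apart for 6 of the 8 tested members in medium, beside 53.5% of all genes, and for 6 of 8 with cytokines, beside 61.6%. The ranges of medium and cytokines stayed apart for 5 of 8 in shRNA-NC cells, beside 45.7%, and for all 8 tested members in shRNA-*Ddx5* cells, beside 47.3%. With 3 libraries against 3 an exact two-sided permutation test of a single gene cannot go below p = 0.1. The median log2 fold change over all tested genes lay between -0.01 and 0.03 in every comparison.

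**Figure D1:**
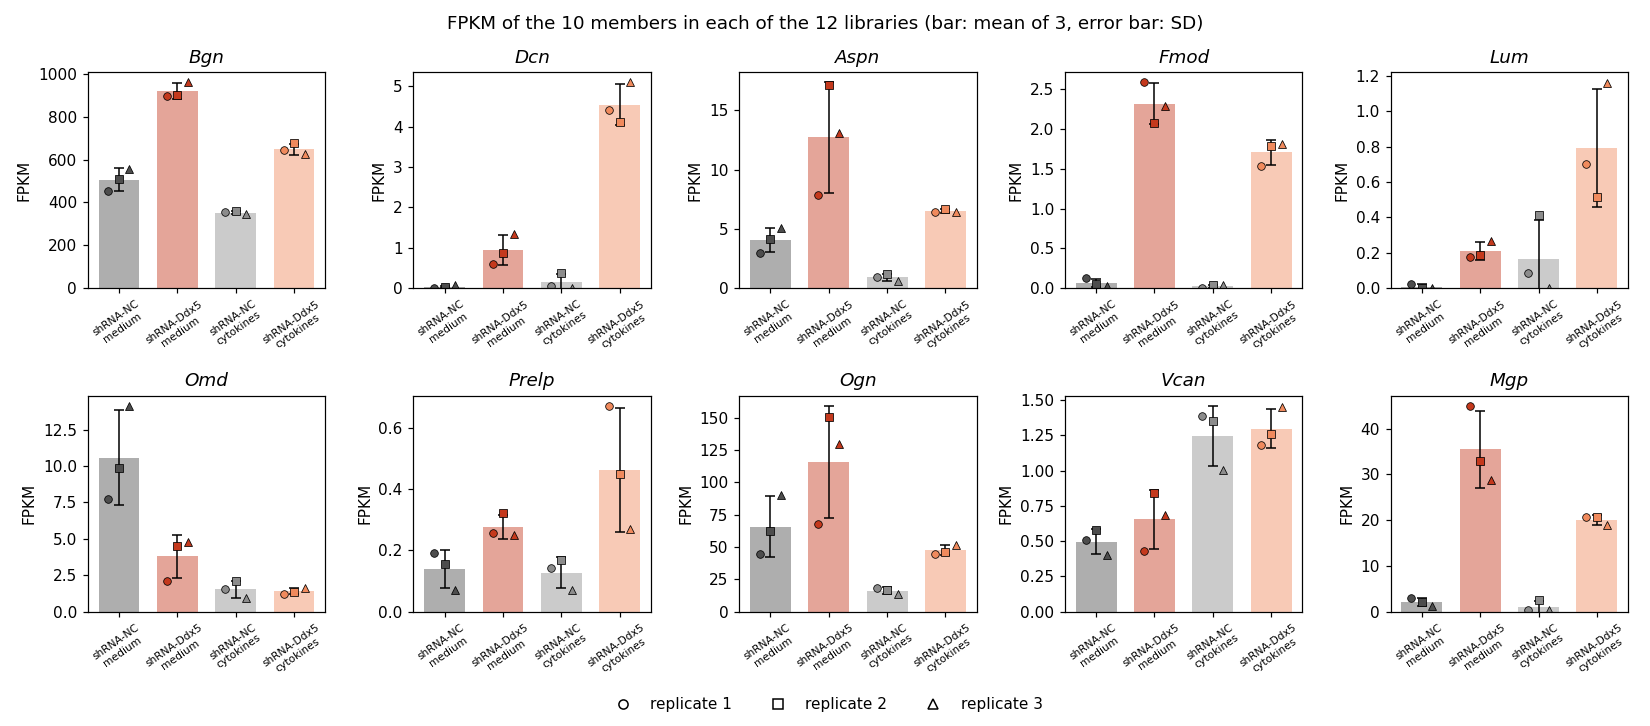
FPKM of the 10 genes (a panel each, linear axes from 0) in shRNA-NC and shRNA-*Ddx5* libraries in medium and with cytokines. Bars are means of 3 libraries, error bars the SD and symbols the replicates. *Bgn* runs from 345 to 962 FPKM and *Lum* from 0 to 1.16. The shRNA-*Ddx5* bars are the higher ones in both media for all genes but *Omd*. The replicates of the hairpins overlap for *Vcan* in both media, for *Ogn* in medium and for *Omd* with cytokines.

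*Bgn* was the most abundant of the 10 transcripts in every group, with 81.1% to 95.4% of the summed FPKM of all 10 in a library. *Ogn* came second in every group, with 3.70% to 13.6%. The places below were not fixed. In shRNA-NC cells in medium, *Omd* was the third (10.6 FPKM) and *Aspn* the fourth (4.05), *Aspn* and the next, *Mgp* (2.12), overlapping. In shRNA-*Ddx5* cells *Mgp* was the third both in medium (35.5 FPKM) and with cytokines (20.0), and *Aspn* the fourth (12.7 and 6.51), neither overlapping the next gene. In shRNA-NC cells with cytokines, *Omd* (1.53 FPKM), *Vcan* (1.25), *Mgp* (1.11) and *Aspn* (0.893) followed each other with ranges that overlapped at each step. *Dcn* was the ninth of 10 in shRNA-NC cells in medium (0.0289 FPKM, overlapping its neighbours *Fmod* and *Lum*) and the fifth in shRNA-*Ddx5* cells with cytokines (4.55 FPKM, apart from both neighbours). *Lum* and *Prelp* held the last places in both shRNA-*Ddx5* groups, with ranges that overlapped.

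*Bgn* lies on the plus strand of the X chromosome (GRCm39, chrX:72527207-72539542) and encodes a collagen-binding SLRP that also acts on Toll-like receptors once released from the matrix. In medium it measured 453, 509 and 558 FPKM in shRNA-NC and 899, 900.4 and 962 in shRNA-*Ddx5* libraries. With cytokines the values were 354, 358 and 345 FPKM in shRNA-NC and 643, 675 and 626 in shRNA-*Ddx5* libraries. All shRNA-*Ddx5* libraries lay above all shRNA-NC libraries of the same medium, and all cytokine libraries below the medium libraries of the same hairpin. The mean was 1.82-fold higher upon knockdown in medium (log2 fold change 0.86 ± 0.09 SE, adjusted p = 3.0e-05) and 1.84-fold higher with cytokines (0.88 ± 0.09, adjusted p = 2.5e-05). The cytokines lowered it to 69.5% of the medium level in shRNA-NC (-0.52 ± 0.09, adjusted p = 0.0014) and to 70.4% in shRNA-*Ddx5* cells (-0.51 ± 0.09, adjusted p = 0.0019). The difference of the knockdown effect between the media was 0.01, with a 95% confidence interval of -0.28 to 0.30. *Bgn* thus moved by nearly the same factor in either direction whatever the other treatment was.

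The study is concerned with G-quadruplexes, 4-stranded folds of guanine-rich nucleic acid that DDX5 can unwind, so the letters before the start of *Bgn* are shown beside those of *Vcan*, the gene that did not pass the test upon knockdown. RefSeq promoter windows (table build GRCm38.p6), 250 bases before to 50 after the start, were available for 7 of the 10 genes and matched GRCm39 once each. *Dcn*, *Lum* and *Mgp* had no entry. For 5 of the 7 the start of the window is the gene start of the expression table, whereas it lies 515 bases inside the gene for *Vcan* and 8.68 kb inside for *Prelp*, so those windows belong to other starts than the outermost one. The *Bgn* window is chrX:72526957-72527256 on the plus strand, and that of *Vcan* is chr13:89890582-89890881 on the minus strand, both written 5′ to 3′ on the gene's strand. Capitals mark stretches that fit a G-quadruplex pattern, 4 runs of at least 3 G with 1 to 7 bases between them, on either strand (runs of C when on the other strand, overlapping matches joined).
Bgn: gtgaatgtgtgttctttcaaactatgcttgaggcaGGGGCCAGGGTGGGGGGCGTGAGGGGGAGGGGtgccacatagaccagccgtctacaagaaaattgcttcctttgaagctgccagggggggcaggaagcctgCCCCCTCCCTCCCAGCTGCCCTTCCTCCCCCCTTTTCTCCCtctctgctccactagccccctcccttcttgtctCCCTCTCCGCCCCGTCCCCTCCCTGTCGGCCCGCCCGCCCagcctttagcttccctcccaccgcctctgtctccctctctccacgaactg
Vcan: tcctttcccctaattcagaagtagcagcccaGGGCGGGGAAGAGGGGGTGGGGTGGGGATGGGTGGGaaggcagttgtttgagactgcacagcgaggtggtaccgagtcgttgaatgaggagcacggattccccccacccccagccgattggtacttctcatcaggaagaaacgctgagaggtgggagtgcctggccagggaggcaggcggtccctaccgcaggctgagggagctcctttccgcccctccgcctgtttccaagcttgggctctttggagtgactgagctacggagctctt
The pattern was found in the windows of *Bgn*, *Vcan* and *Prelp*, 3 of 7, and in 18.1% of 27025 promoter windows of the same length. Both printed windows hold it far from the start they were cut for on the strand of the gene, and *Bgn* also holds it on the other strand up to the base before the start. A match of letters is a description and says nothing about whether a fold forms or a protein binds. The *Col2* promoter sequence that folded in the study has shorter runs of G, so this pattern would not mark it. Stretches of that kind were not searched for in the windows.

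*Dcn*, the SLRP that coats collagen fibrils of skin, tendon and fibrous tissue and binds TGF-β, lies on the plus strand of chromosome 10 (chr10:97315362-97354025). In medium it had 0, 1 and 2 fragments in shRNA-NC and 21, 33 and 51 fragments in shRNA-*Ddx5* libraries. With cytokines it had 2, 15 and 0 fragments in shRNA-NC and 154, 138 and 169 fragments in shRNA-*Ddx5* libraries. The shRNA-NC libraries were thus near the limit of detection except for replicate 2 with cytokines, and no shRNA-*Ddx5* library overlapped them. As FPKM the shRNA-*Ddx5* values were 0.607, 0.869 and 1.34 in medium and 4.43, 4.12 and 5.10 with cytokines. Summed over libraries and scaled to the authors' denominators, the fragments were 37.3 times as many upon knockdown in medium (95% counting interval 12.4 to 184) and 30.5 times as many with cytokines (18.9 to 52.8). Without replicate 2 of shRNA-NC, which held 15 of the 17 fragments there, the last ratio was 169.8 (46.7 to 1406). Such intervals cover counting error only. The log2 fold change was 0.90 ± 0.15 SE in medium (adjusted p = 7.3e-04) and 2.29 ± 0.15 with cytokines (adjusted p = 1.3e-06), and 2.43 (adjusted p = 1.8e-06) without replicate 2 of shRNA-NC with cytokines.

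*Dcn* was the member whose response to cytokines depended on the hairpin in the fit on log2(FPKM + 1). In shRNA-*Ddx5* cells the cytokines raised it 4.84-fold (log2 fold change 1.53 ± 0.15 SE, adjusted p = 2.0e-05). In shRNA-NC cells the fitted difference was 0.14 ± 0.15 (adjusted p = 0.51), and -0.0007 without replicate 2. The interaction was 1.39 ± 0.22 (adjusted p = 0.0032), but it did not pass the threshold with a pseudocount of 0.1 (1.58, adjusted p = 0.222) or with voom precision weights on the recovered fragments (1.09, adjusted p = 0.656). As a ratio, the scaled fragments with cytokines were 5.85 times those in medium in shRNA-NC cells (95% counting interval 1.69 to 31.1), 1.05 times (0.0878 to 9.17) without replicate 2, and 4.79 times (3.86 to 5.97) in shRNA-*Ddx5* cells. The cell lines differed in the absolute gain, and 2 fragments against 3 in the remaining shRNA-NC libraries leave the ratio there loosely bounded.

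*Lum*, which binds collagen in the cornea and many other tissues, lies 47.3 kb beyond *Dcn* on the same strand (chr10:97401363-97408565). It had 1, 0 and 0 fragments in shRNA-NC and 6, 7 and 10 in shRNA-*Ddx5* libraries in medium. With cytokines the fragments were 3, 16 and 0 in shRNA-NC and 24, 17 and 38 in shRNA-*Ddx5* libraries. The ranges stayed apart in both media, with replicate 2 of shRNA-NC just under the lowest shRNA-*Ddx5* library. Without the filter, the log2 fold change upon knockdown was 0.26 ± 0.14 SE in medium (adjusted p = 0.24) and 0.62 ± 0.14 with cytokines (adjusted p = 0.010), and the cytokines raised *Lum* in shRNA-*Ddx5* cells by 0.55 ± 0.14 (adjusted p = 0.029, but 0.091 with a pseudocount of 0.1). The scaled fragments with cytokines were 4.68 times those of shRNA-NC with all libraries (95% counting interval 2.81 to 8.18) and 19.4 times (6.40 to 96.1) without replicate 2. Farther along the same strand follow the SLRP genes *Kera*, which had no fragment in any library, and *Epyc*, which reached 0.0628 FPKM in 1 group and 0 elsewhere.

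*Fmod*, which binds type I and II collagen and organises fibrils of cartilage and tendon, lies at chr1:133964992-133976018 on the plus strand. It had 8, 3 and 1 fragments in shRNA-NC and 133, 117 and 129 in shRNA-*Ddx5* libraries in medium. With cytokines it had 0, 2 and 2 fragments in shRNA-NC and 79, 89 and 89 in shRNA-*Ddx5* libraries. The groups were far apart in both media, and replicate 2 of shRNA-NC with cytokines did not stand out in fragments. The shRNA-*Ddx5* values of 2.59, 2.07 and 2.29 FPKM in medium and 1.53, 1.79 and 1.81 FPKM with cytokines spread little. The ratio of scaled fragments was 33.6 (95% counting interval 19.0 to 65.7) in medium and 72.3 (27.9 to 267) with cytokines. The log2 fold change was 1.64 ± 0.09 SE (adjusted p = 5.1e-07) in medium and 1.40 ± 0.09 (adjusted p = 1.2e-06) with cytokines. The interaction of -0.23 ± 0.13 did not pass (adjusted p = 0.31). The cytokines lowered *Fmod* in shRNA-*Ddx5* cells to 73.8% of the medium level (-0.29 ± 0.09, adjusted p = 0.039), a call lost with a pseudocount of 0.1 (adjusted p = 0.327), with voom weights (0.127) and when any of 7 libraries was left out.

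*Prelp*, a heparin-binding SLRP of basement membranes and cartilage, lies 107 kb from *Fmod* on the other strand (chr1:133838042-133857820). It had 15, 12 and 4 fragments in shRNA-NC and 16, 22 and 17 in shRNA-*Ddx5* libraries in medium, and 9, 12 and 5 against 42, 27 and 16 with cytokines. Every shRNA-*Ddx5* library was above every shRNA-NC library of its medium, by 1 fragment at the closest in medium. Without the filter the log2 fold change was 0.16 ± 0.09 SE in medium (adjusted p = 0.24) and 0.37 ± 0.09 with cytokines (adjusted p = 0.013). The ratio of scaled fragments was 1.89 (95% counting interval 1.20 to 3.04) in medium and 3.68 (2.35 to 5.95) with cytokines.

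**Figure D2:**
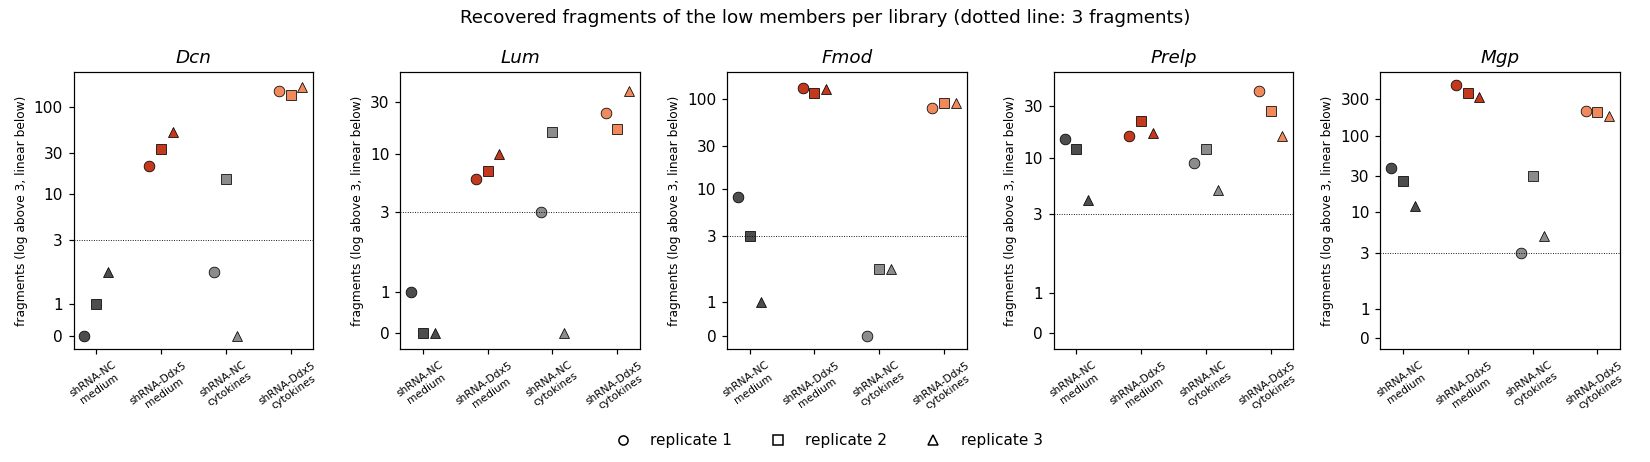
Fragments per library of *Dcn*, *Lum*, *Fmod*, *Prelp* and *Mgp* (axis logarithmic above 3 fragments and linear below, dotted line at 3), with a symbol per replicate. The shRNA-NC libraries in medium hold at most 8 fragments of *Dcn*, *Lum* and *Fmod*, and in shRNA-NC with cytokines replicate 2 (square) has 15 *Dcn*, 16 *Lum* and 30 *Mgp* fragments against at most 5 in the other replicates.

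*Aspn*, *Omd* and *Ogn* are neighbours on the plus strand of chromosome 13, with no other gene of the table between them. *Aspn* (chr13:49697919-49721041) is followed after 14.9 kb by *Omd* (chr13:49735938-49746088) and after another 15.4 kb by *Ogn* (chr13:49761491-49777977). The antisense gene *Cenpp* overlaps them and shares 18.8% of the exon bases of *Ogn*, 9.12% of those of *Aspn* and none of those of *Omd*. Whether the counting used strand is not stated, so reads of *Cenpp* and of these exons may be mixed. *Cenpp* itself stood between 0.821 and 3.56 FPKM and also rose upon knockdown, by 0.53 in medium (adjusted p = 0.0047) and 0.35 with cytokines (adjusted p = 0.039), and its part in the values of *Ogn* and *Aspn* was not tested. The windows around the starts of the neighbours are printed because the genes lie side by side yet differ in their response to the knockdown. They cover chr13:49697669-49697968 (*Aspn*), chr13:49735688-49735987 (*Omd*) and chr13:49761241-49761540 (*Ogn*), on the plus strand, and capitals mark the letters TATAAA and AACAAT on either strand, the first a core of the TATA box and the second a core that SOX factors bind.
Aspn: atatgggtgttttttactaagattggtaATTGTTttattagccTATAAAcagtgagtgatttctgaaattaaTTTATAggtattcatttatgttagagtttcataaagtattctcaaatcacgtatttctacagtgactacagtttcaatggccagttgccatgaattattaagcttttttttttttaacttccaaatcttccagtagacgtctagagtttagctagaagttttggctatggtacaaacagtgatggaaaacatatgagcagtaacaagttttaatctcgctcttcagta
Omd: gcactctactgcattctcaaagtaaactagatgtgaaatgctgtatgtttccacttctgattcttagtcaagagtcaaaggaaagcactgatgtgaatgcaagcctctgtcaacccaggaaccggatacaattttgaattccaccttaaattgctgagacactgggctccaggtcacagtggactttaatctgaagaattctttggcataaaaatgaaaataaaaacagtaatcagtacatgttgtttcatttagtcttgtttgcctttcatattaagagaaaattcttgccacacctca
Ogn: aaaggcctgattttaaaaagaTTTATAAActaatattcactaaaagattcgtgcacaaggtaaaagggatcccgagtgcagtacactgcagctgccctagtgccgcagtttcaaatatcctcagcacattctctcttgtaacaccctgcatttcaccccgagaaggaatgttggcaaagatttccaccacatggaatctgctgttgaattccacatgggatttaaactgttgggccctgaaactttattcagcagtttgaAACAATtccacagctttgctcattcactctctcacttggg
*Aspn* holds TATAAA on both strands and AACAAT on the other strand. *Ogn* holds 2 overlapping TATAAA matches and AACAAT just after the start, and *Omd* holds neither. The windows of *Bgn* and *Fmod*, which rose upon knockdown, and of *Vcan* hold neither as well. That of *Prelp* holds AACAAT on the other strand and no TATAAA. A link of these letters to the response was not tested. TATAAA was found in 14.2% and AACAAT in 10.9% of the 27025 windows. The TATAAA matches lie between positions -229 and -173 from the annotated starts, farther away than a TATA box sits. An AP-1 core (TGANTCA, 7.93% of windows), the NF-κB site (8.18%) and the CArG box of SRF (1.57%) were not found in any of the 7 windows, which says only that these letters are not there. G and C made up 31.0% of the *Aspn*, 37.7% of the *Omd* and 42.3% of the *Ogn* window.

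*Aspn*, a class I SLRP with an aspartate-rich end that binds TGF-β and is known from arthritic cartilage, measured 2.97, 4.12 and 5.06 FPKM in shRNA-NC and 7.85, 17.2 and 13.1 in shRNA-*Ddx5* libraries in medium. With cytokines it measured 0.890, 1.18 and 0.610 FPKM in shRNA-NC and 6.40, 6.68 and 6.45 in shRNA-*Ddx5* libraries. The shRNA-*Ddx5* libraries were the higher ones in both media. The mean was 3.14-fold higher upon knockdown in medium (log2 fold change 1.40 ± 0.23 SE, adjusted p = 5.6e-04) and 7.29-fold higher with cytokines (2.00 ± 0.23, adjusted p = 4.8e-05). The cytokines lowered *Aspn* to 22.1% of the medium level in shRNA-NC (-1.40 ± 0.23, adjusted p = 8.7e-04) and to 51.2% in shRNA-*Ddx5* cells (-0.81 ± 0.23, adjusted p = 0.024). The last call was lost without the filter (adjusted p = 0.0597) and when replicate 2 or 3 in medium or any replicate with cytokines of shRNA-*Ddx5* was left out (adjusted p 0.0598 to 0.0874). The interaction was 0.60 ± 0.33 (adjusted p = 0.30).

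*Ogn*, also called mimecan, a class III SLRP of bone and connective tissue, measured 44.3, 62.6 and 90.6 FPKM in shRNA-NC and 67.6, 151 and 129 in shRNA-*Ddx5* libraries in medium. With cytokines it measured 18.6, 16.5 and 13.4 FPKM in shRNA-NC and 44.9, 45.9 and 51.8 in shRNA-*Ddx5* libraries. In medium replicate 1 of shRNA-*Ddx5* lay within the range of shRNA-NC, and with cytokines the groups were apart. The log2 fold change upon knockdown was 0.79 ± 0.29 SE in medium (adjusted p = 0.044) and 1.51 ± 0.29 with cytokines (adjusted p = 0.0016), where the mean was 2.94-fold higher. The call in medium was lost without the filter (adjusted p = 0.104), after quantile normalization (0.183), after scaling to the sum of fragments (0.0762), with only the 6 libraries of the contrast (0.13) and when any library was left out (0.0509 to 0.164) except replicate 3 of shRNA-NC or replicate 1 of shRNA-*Ddx5* in medium. The cytokines lowered *Ogn* to 24.6% of the medium level in shRNA-NC (-1.91 ± 0.29, adjusted p = 5.1e-04) and to 41.0% in shRNA-*Ddx5* cells (-1.19 ± 0.29, adjusted p = 0.011). The interaction was 0.72 ± 0.41 (adjusted p = 0.32).

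*Omd*, a keratan sulfate SLRP found mainly in bone and tooth, went the other way. In medium it measured 7.71, 9.86 and 14.1 FPKM in shRNA-NC and 2.12, 4.54 and 4.76 in shRNA-*Ddx5* libraries. With cytokines it measured 1.56, 2.09 and 0.939 FPKM in shRNA-NC and 1.25, 1.36 and 1.62 in shRNA-*Ddx5* libraries. The knockdown libraries were the lower ones in medium, and with cytokines both hairpins lay in the same low range. Knockdown lowered *Omd* to 36.0% of the control in medium (log2 fold change -1.28 ± 0.26 SE, adjusted p = 0.0020), and with cytokines the difference was -0.05 with a 95% confidence interval of -0.62 to 0.52 (adjusted p = 0.90). The cytokines lowered it to 14.5% of the medium level in shRNA-NC (-2.18 ± 0.26, adjusted p = 9.0e-05) and to 37.0% in shRNA-*Ddx5* cells (-0.95 ± 0.26, adjusted p = 0.019). The last call was lost without the filter (adjusted p = 0.0514) and when replicate 2 or 3 in medium or replicate 1 or 2 with cytokines of shRNA-*Ddx5* was left out (0.0579 to 0.084). The knockdown effect differed between the media by 1.23 ± 0.37, which did not pass (adjusted p = 0.065) and passed at 1.39 (adjusted p = 0.049) without replicate 2 of shRNA-NC with cytokines.

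The ratio of *Ogn* to *Omd* FPKM lay between 5.75 and 6.41 in the shRNA-NC libraries in medium, although *Ogn* itself varied from 44.3 to 90.6 FPKM there. In shRNA-*Ddx5* libraries it was 27.2 to 33.2 in medium and 31.9 to 36.0 with cytokines, and in shRNA-NC with cytokines 7.87 to 14.3. The ratio of *Aspn* to *Omd* was 0.358 to 0.418 and 0.563 to 0.650 in shRNA-NC, and 2.76 to 3.79 and 3.98 to 5.14 in shRNA-*Ddx5* libraries, in medium and with cytokines. Both ratios were higher in every shRNA-*Ddx5* than in every shRNA-NC library, in either medium. The ratio of *Ogn* to *Aspn* went the other way, with 14.9 to 17.9 in shRNA-NC and 8.61 to 9.86 in shRNA-*Ddx5* libraries in medium, and 14.0 to 21.96 and 6.87 to 8.03 with cytokines. Thus *Aspn* gained most upon knockdown, *Ogn* less, and *Omd* did not gain.

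**Figure D3:**
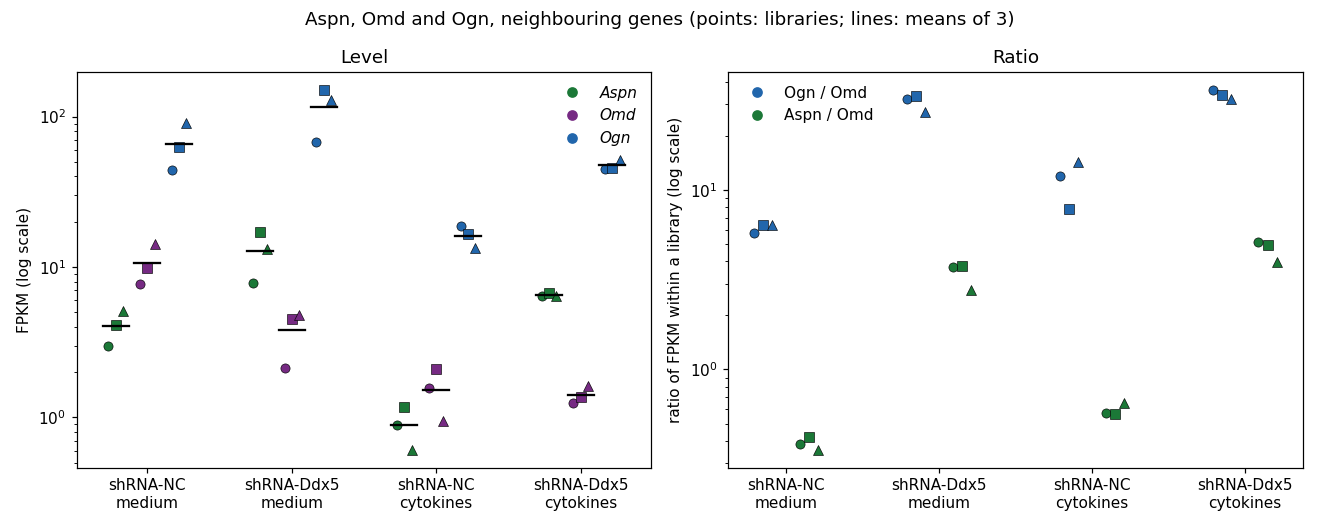
Left, FPKM of *Aspn*, *Omd* and *Ogn* per library on a logarithmic axis, with lines at the means of 3. Right, the ratio of *Ogn* and of *Aspn* to *Omd* within each library, also logarithmic. The ratio of *Ogn* to *Omd* is 5.75 to 14.3 in the shRNA-NC and 27.2 to 36.0 in the shRNA-*Ddx5* libraries.

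*Vcan*, on the minus strand at chr13:89803429-89891146, encodes a hyaluronan-binding proteoglycan of provisional matrix. It measured 0.509, 0.581 and 0.403 FPKM in shRNA-NC and 0.432, 0.845 and 0.687 in shRNA-*Ddx5* libraries in medium, from 93 to 234 fragments. With cytokines it measured 1.39, 1.35 and 1.00 FPKM in shRNA-NC and 1.18, 1.26 and 1.45 in shRNA-*Ddx5* libraries, from 289 to 389 fragments. The hairpins overlapped in both media, and every cytokine library lay above every medium library. The log2 fold change upon knockdown was 0.14 in medium (95% confidence interval -0.12 to 0.39, adjusted p = 0.36) and 0.04 with cytokines (-0.22 to 0.29, adjusted p = 0.83). The cytokines raised *Vcan* 2.50-fold in shRNA-NC (0.58 ± 0.12 SE, adjusted p = 0.0030) and 1.98-fold in shRNA-*Ddx5* cells (0.48 ± 0.12, adjusted p = 0.010). It was the only tested member that the cytokines raised in both cell lines.

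The other hyaluronan-binding proteoglycans and link proteins were at low levels: none of 7 passed the filter, and their summed level was 0.312 to 1.46 FPKM. *Bcan* had no fragment. *Hapln1*, which locks proteoglycans onto hyaluronan, had no fragment in shRNA-NC cells and at most 12 fragments in a shRNA-*Ddx5* library in medium and 10 with cytokines. *Hapln4*, chosen after its values were seen, reached 0.205 to 1.15 FPKM.

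*Mgp*, on the minus strand at chr6:136849433-136852821, had the largest fitted change of the 10 on the log2(FPKM + 1) scale, while the ratios of means were larger for *Fmod* (36.1 in medium and 75.2 with cytokines) and *Dcn* (32.5 and 31.2). It measured 2.99, 2.08 and 1.29 FPKM in shRNA-NC and 44.9, 32.9 and 28.7 in shRNA-*Ddx5* libraries in medium. With cytokines it measured 0.291, 2.60 and 0.431 FPKM in shRNA-NC and 20.6, 20.7 and 18.8 in shRNA-*Ddx5* libraries. The groups did not overlap in either medium, and replicate 2 of shRNA-NC with cytokines, with 30 fragments against 3 and 5, was 7.18 times the mean of the other replicates. The mean was 16.7-fold higher upon knockdown in medium (log2 fold change 3.56 ± 0.34 SE, adjusted p = 1.3e-05) and 18.1-fold higher with cytokines (3.48 ± 0.34, adjusted p = 1.4e-05). Without replicate 2 the last values were 55.5-fold and 3.95 (adjusted p = 1.0e-06). The interaction was -0.08 with a 95% confidence interval of -1.13 to 0.97.

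The cytokine comparisons of *Mgp* depended on that library and on other settings of the fit. In shRNA-NC cells the difference was -0.69 ± 0.34 (adjusted p = 0.14), and -1.16 (adjusted p = 0.0034) without replicate 2. In shRNA-*Ddx5* cells, where the ranges of 28.7 to 44.9 and 18.8 to 20.7 FPKM were apart, the difference was -0.77 ± 0.34 (adjusted p = 0.12). It passed the threshold in the fit without that library (adjusted p = 0.017), with voom weights (0.0159) and with only the 6 libraries of the contrast (0.0103). It did not pass without the filter (adjusted p = 0.225), nor without the filter at a pseudocount of 0.1 (0.460).

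**Figure D4:**
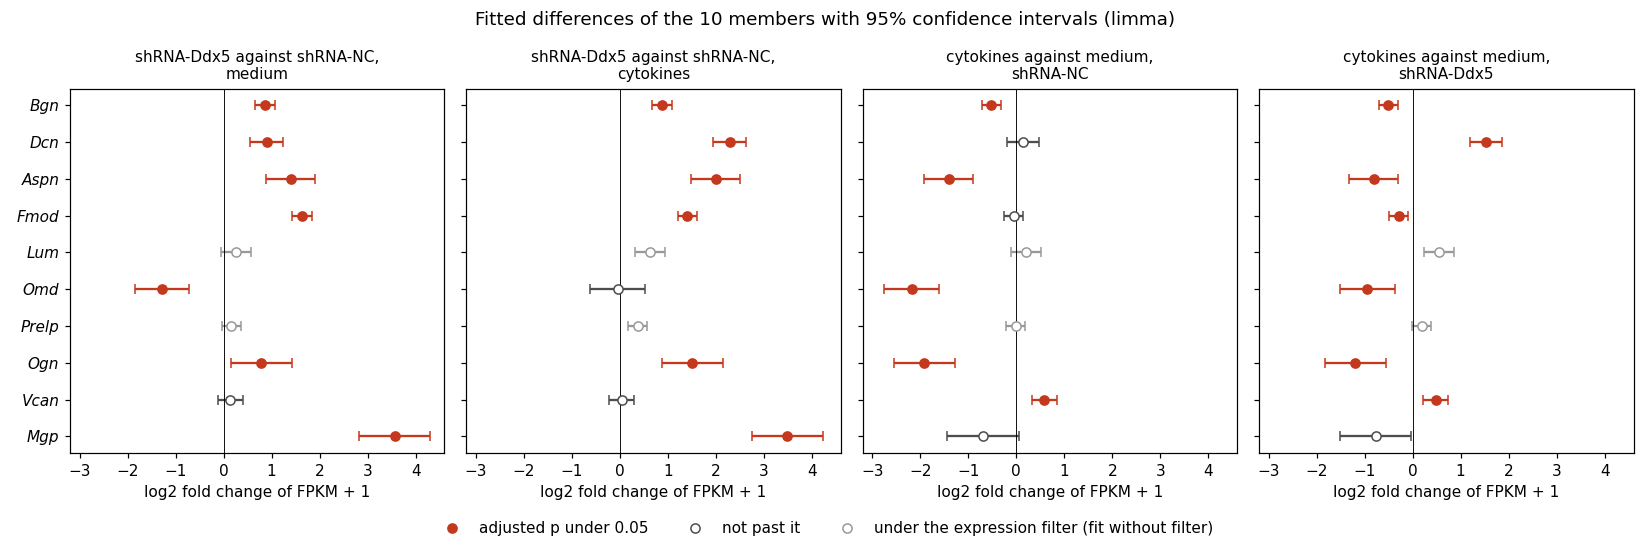
Fitted log2 differences of FPKM + 1 with 95% confidence intervals for the 10 genes in the knockdown (left pair of panels) and cytokine comparisons (right pair), on 1 axis range. Filled points passed an adjusted p of 0.05, open dark points did not, and grey points are *Lum* and *Prelp* from the fit without the filter. *Mgp* lies at 3.56 and 3.48 upon knockdown, and *Omd* alone lies left of 0 past the threshold there, in medium.

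Markers of other cell types moved with the knockdown too. The summed level of 7 fibroblast markers, 5 of which passed the filter, was 536 to 551 FPKM in shRNA-NC and 2069 to 2175 in shRNA-*Ddx5* libraries in medium, and 259 to 422 against 1563 to 1813 with cytokines, with *Thy1* at no more than 3 fragments. Nearly all of that sum came from the collagen genes *Col1a1*, *Col1a2* and *Col3a1*. In medium *Pdgfra* (log2 fold change -0.06, adjusted p = 0.75) and *Fbn1* (0.19, adjusted p = 0.21) did not pass. With cytokines *Pdgfra* rose by 0.58 (adjusted p = 0.0029) and *Fbn1* by 0.47 (adjusted p = 0.0077) upon knockdown. The sum of 6 osteoblast markers, 3 of which passed, was 12.9 to 15.2 against 57.7 to 63.4 FPKM in medium and 4.90 to 8.05 against 22.8 to 26.2 with cytokines. The sum of 5 smooth muscle markers, 1 of which passed, was 0.601 to 0.668 against 11.7 to 11.99 FPKM in medium and 0.556 to 2.70 against 17.4 to 19.6 with cytokines, with *Tagln* at no more than 3 fragments. That sum was nearly *Acta2* alone, smooth muscle actin, at 11.5 to 11.9 FPKM in shRNA-*Ddx5* libraries in medium. The sum of 15 cartilage markers was lower in shRNA-*Ddx5* libraries, 32.5 to 35.3 against 41.7 to 48.2 FPKM in medium and 11.9 to 12.1 against 14.7 to 21.3 with cytokines. It was carried by *Sox9* and *Col2a1*, and its members did not move together. Of the 5 tested 1 rose and 2 fell in medium, beside 25.3% and 21.7% of all genes. With cytokines 1 rose and 3 fell, beside 23.5% and 22.1%. *Col11a1*, the osteoblast marker *Alpl*, *Acta2* and *Mmp13* reached 1 FPKM in fewer than 3 shRNA-NC libraries. These markers thus passed the filter through shRNA-*Ddx5* libraries, and counts that hold them are a description. *Col2a1* fell by 2.80 and 1.98 on the log2 scale (adjusted p = 5.9e-06 and 5.5e-05), and *Col11a1* rose from 0.897 to 4.78 FPKM in medium (1.601, adjusted p = 2.3e-06) and by 1.65 with cytokines (adjusted p = 1.8e-06). The sum of 3 hypertrophic cartilage markers, 1 of which passed, was at most 0.443 FPKM in medium and 0.464 to 4.30 against 9.32 to 11.1 with cytokines, nearly all of it *Mmp13*. The sum of 5 macrophage and leukocyte markers, 1 of which passed, was 1.29 to 2.84 FPKM over all libraries, with *Ptprc* at 0, and that of 4 endothelial markers, none of which passed, 0.0155 to 0.151 with *Cdh5* at 0. The part of these shifts in the values of *Bgn*, *Dcn*, *Aspn*, *Fmod* and *Mgp* was not tested, and in bulk RNA fewer cells of a type and less RNA per cell cannot be told apart.

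The other SLRP genes were mostly at low levels. Of 10 of them 3 passed the filter, of which none rose and 1 fell upon knockdown in medium, and 1 rose and 1 fell with cytokines, with medians of 0.19 and 0.36, beside 25.3% higher and 21.7% lower of all genes in medium and 23.5% and 22.1% with cytokines. *Tsku*, tsukushi, an inhibitor of BMP signalling, rose with cytokines from 5.34 ± 0.548 to 9.46 ± 0.635 FPKM (SD, n = 3) upon knockdown (log2 fold change 0.72, adjusted p = 0.0012) and stood at 0.19 in medium (adjusted p = 0.26). *Chadl*, which restrains collagen fibril formation, fell by 0.38 on the log2 scale in medium (adjusted p = 0.021) and by 0.33 with cytokines (adjusted p = 0.036). *Ecm2*, the gene before *Aspn* on chromosome 13, reached no more than 0.393 FPKM.

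The enzymes that build the sugar chains of these proteins changed in both directions. Of 22 genes of chondroitin and dermatan sulfate synthesis 19 passed the filter, of which 8 rose and 3 fell upon knockdown in medium, and 6 rose and 4 fell with cytokines. *Chst12*, a chondroitin 4-O-sulfotransferase, rose from 7.25 ± 0.237 up to 21.8 ± 3.496 FPKM (SD, n = 3) in medium (log2 fold change 1.46, adjusted p = 1.2e-05) and by 1.15 with cytokines (adjusted p = 5.5e-05). *B3gat3*, which completes the linker between core protein and chain, rose by 0.72 (adjusted p = 0.0058) and 0.50 (adjusted p = 0.034). *Chst15*, which adds a further sulfate to chondroitin, fell by 0.51 in medium (adjusted p = 0.0034) and by 0.93 with cytokines (adjusted p = 6.6e-05). *Chpf2*, a chondroitin polymerising factor, passed with cytokines at 0.84 (adjusted p = 0.017), not in medium at 0.47 (adjusted p = 0.15). The median log2 fold change of the 19 genes was 0.24 in medium and 0.12 with cytokines, beside 0.03 and 0.01 over all genes, of which 25.3% rose and 21.7% fell in medium and 23.5% rose and 22.1% fell with cytokines.

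Of 9 genes of keratan sulfate synthesis 6 passed the filter. Upon knockdown 1 rose and 2 fell in medium, and none rose and 4 fell with cytokines, with medians of -0.04 and -0.34. In medium 1 and 2 of 6 stand beside 25.3% and 21.7% of all genes, and with cytokines 0 and 4 of 6 beside 23.5% and 22.1%. *B4galt1*, a galactosyltransferase of the list, fell from 17.4 ± 0.358 down to 6.85 ± 0.259 FPKM (SD, n = 3) in medium (log2 fold change -1.23, adjusted p = 2.3e-07). With cytokines it fell from 11.6 ± 0.182 to 6.98 ± 0.238 FPKM (-0.66, adjusted p = 1.3e-05). *B4galt4*, another galactosyltransferase of the list, was chosen after its values were seen. It rose by 0.27 in medium (adjusted p = 0.031) and stood at -0.17 with cytokines (adjusted p = 0.15). *Chst1*, a sulfotransferase of galactose in the chain, fell from 3.05 ± 0.166 to 0.779 ± 0.131 FPKM (SD, n = 3) in medium (-1.19, adjusted p = 3.1e-06). With cytokines it fell from 0.923 ± 0.0664 to 0.257 ± 0.0734 FPKM (-0.61, adjusted p = 2.6e-04). *Fut8* and *B3gnt2* fell with cytokines, by 0.35 (adjusted p = 0.0090) and 0.33 (adjusted p = 0.021). In the same libraries *Fmod*, a carrier of keratan sulfate, rose in both media. *Omd*, another carrier, fell in medium (-1.28, adjusted p = 0.0020) and did not pass with cytokines (-0.05, adjusted p = 0.90). *Lum*, also a carrier, was under the filter. A relation between these enzymes and the carriers was not tested.

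Of 17 proteases that cut versican or SLRPs 11 passed the filter. Upon knockdown 6 rose and none fell in medium and 10 rose and none fell with cytokines, with medians of 0.39 and 0.85. Beside them stand 25.3% higher and 21.7% lower of all genes in medium and 23.5% and 22.1% with cytokines. *Adamts9*, *Mmp12* and *Mmp13* reached 1 FPKM in fewer than 3 shRNA-NC libraries and so passed the filter through shRNA-*Ddx5* libraries, which makes these counts a description. *Adamts5*, which cleaves versican and aggrecan, rose from 0.922 ± 0.0821 up to 6.82 ± 0.884 FPKM (SD, n = 3) in medium (log2 fold change 2.02, adjusted p = 4.5e-06) and from 1.61 ± 0.751 to 10.5 ± 0.417 with cytokines (2.17, adjusted p = 2.6e-06). *Htra1*, a serine protease that cuts decorin, biglycan and fibromodulin, rose by 1.25 (adjusted p = 9.7e-06) and 0.79 (adjusted p = 2.1e-04). *Mmp3* and *Mmp13* stood near 0 in medium and were higher upon knockdown with cytokines, by 2.29 (adjusted p = 0.0030) and 2.28 (adjusted p = 5.8e-04), while the shRNA-NC libraries with cytokines spread from 1.73 to 14.3 FPKM for *Mmp3* and from 0.425 to 4.25 for *Mmp13*, with replicate 2 the highest. The list holds genes of a known cytokine response, and its members were chosen with results of these libraries known.

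MGP works only once its glutamates have been carboxylated, and of 13 genes of Gla proteins and the vitamin K cycle 7 passed the filter, of which 2 rose and 2 fell upon knockdown in medium and 3 rose and 1 fell with cytokines, with medians of 0.20 and 0.26. These counts lie near the shares of all genes, 25.3% higher and 21.7% lower in medium and 23.5% and 22.1% with cytokines. *Vkorc1*, the vitamin K epoxide reductase, rose from 22.4 ± 7.21 up to 32.6 ± 2.25 FPKM (SD, n = 3) in medium (log2 fold change 0.57, adjusted p = 0.026) and from 16.8 ± 2.75 to 31.6 ± 3.43 with cytokines (0.88, adjusted p = 0.0026). *Pros1*, protein S, rose by 0.61 (adjusted p = 0.0019) and 0.60 (adjusted p = 0.0023). The membrane Gla protein gene *Prrg4* fell by 0.56 in medium (adjusted p = 0.0025) and by 0.52 with cytokines (adjusted p = 0.0040), and *Prrg2* fell by 0.47 in medium (adjusted p = 0.014). The carboxylase *Ggcx*, chosen after its values were seen, stood at 0.20 in medium (adjusted p = 0.086) and 0.26 with cytokines (adjusted p = 0.037). All of these differences were smaller than that of *Mgp*.

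Across the 12 libraries the genes of most similar log2 pattern to *Mgp* were *Cnn2* (Pearson r = 0.995), *Alpl* (0.987) and *Gm46558* (0.987). Those most like *Dcn* were *Tgfbr3* (0.984), *Apol6* (0.982) and *Dhrs9* (0.981), and those most like *Vcan* were *Tank* (0.970), *Ahr* (0.962) and *Ptgs2* (0.959). Among the tested members themselves the correlation was 0.975 for *Fmod* and *Mgp*, 0.967 for *Bgn* and *Aspn* and 0.934 for *Ogn* and *Aspn*, and it was -0.76 for *Omd* and *Vcan*. These are descriptions over 4 groups of 3 libraries, which share their groups and scaling.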

How the data were processed

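RNA of 12 ATDC5 cultures, 3 in each of 4 groups, was selected for poly-A tails by the authors and sequenced. Per the labels, the submitters' processing notes name HISAT2 2.0.5, featureCounts 1.5.0-p3, DESeq2 1.20.0, GATK 3.7 and the build mm10, while the coordinates of the deposited table follow GRCm39. The strand setting of the counting is not given in the sources used here. The authors deposited FPKM per gene, and no other measurement per sample. FPKM times gene length gave whole multiples of 1 step in 100% of values (tolerance 0.05), that is, fragments. They sum to 14119199 to 19276520 per library, which limits the precision of low genes, and the denominators followed median-of-ratios size factors.

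Groups were taken from the labels. Values were tested as log2(FPKM + 1) with limma 3.58.1 in R 4.3.3 (lmFit, contrasts.fit, eBayes with trend) on 12368 genes with at least 1 FPKM in at least 3 libraries, with 4 group means, Benjamini-Hochberg adjustment over all genes tested and a threshold of 0.05. The model was tested on simulated data, in which only genes with many fragments were changed and no library stood apart. That test does not cover genes with few fragments, such as *Dcn* and *Fmod* in shRNA-NC cells. Compared were shRNA-*Ddx5* with shRNA-NC cells within a medium, cytokines with medium within a hairpin, and the difference of the knockdown effects. Counting intervals of fragment ratios are exact at 95%, and a count of 3 fragments was the floor. Named were the 10 genes, *Ddx5* and, of each pathway list, up to 4 genes of the largest absolute change among those past the threshold in a knockdown contrast, and for *Dcn*, *Vcan* and *Mgp* the 3 genes of highest Pearson correlation. The members, the lists and the contrasts were chosen with earlier results of these data known. Promoter letters come from RefSeq windows (GRCm38.p6) of 250 bases before to 50 after the start, matched to GRCm39.

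Other settings tried were no filter, a stricter filter, a pseudocount of 0.1, quantile normalization, scaling to the sum of fragments, voom weights, a replicate block, eBayes without trend, the libraries of a contrast alone and each library left out. No filter together with a pseudocount of 0.1 was chosen after seeing the data. Figures were drawn with matplotlib 3.10.9.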

Additional observations from a re-analysis of the deposited data

Results flagged for a closer look

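Among the members and the pathway genes named for their largest change, 4 passed the interaction test of limma (adjusted p under the threshold). Their knockdown effect thus differed between the media on the log2(FPKM + 1) scale. *Mmp12* (0.8959 on the log2 scale, adjusted p = 0.012) and *Pdgfra* (0.6400, adjusted p = 0.049), named above outside that choice, passed the same test. The interaction of *Dcn* was 1.3891 on the log2 scale (adjusted p = 0.0032), with a rise upon knockdown in both media that was larger with cytokines on the log2(FPKM + 1) scale. As ratios of scaled fragments the rises were 37.3 and 30.5, and the interaction did not pass with a pseudocount of 0.1 (adjusted p = 0.222) or with voom weights (0.656). That of *Mmp13* was 2.1546 (adjusted p = 0.033), with no change past the threshold in medium and 0 fragments in shRNA-NC cells there. Those of *B4galt1* and *Chst1* were 0.5744 (adjusted p = 0.0027) and 0.5725 (adjusted p = 0.020), with a fall in both media that was smaller with cytokines. Groups of 3 libraries are too small for a test of single libraries that stand apart. The values of replicate 2 of shRNA-NC with cytokines are given beside the results above, and the reason for its position was not tested.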

How the results depend on the processing

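Each log2 fold change of a member was computed under the alternatives, each library left out included. Direction and side of the threshold were kept by 172 of 175 values for the knockdown with cytokines, 160 of 175 for the knockdown in medium, 173 of 175 for the cytokines in shRNA-NC cells, 148 of 175 in shRNA-*Ddx5* cells and 150 of 167 for the interaction, which could not be fitted on the libraries of 1 contrast alone. A call changed for *Ogn* upon knockdown in medium, for *Mgp* upon cytokines in shRNA-NC cells, for *Fmod*, *Omd*, *Aspn* and *Mgp* in shRNA-*Ddx5* cells and for *Dcn* and *Omd* in the interaction. The sign changed in 17 values, none past the threshold before or after (smallest adjusted p = 0.455). With each library left out, *Omd* ran from -0.23 to 0.11 and *Vcan* from -0.0459 to 0.0804 for the knockdown with cytokines, *Dcn* from -0.000691 to 0.23 for the cytokines in shRNA-NC cells, and *Bgn* from -0.0599 to 0.0902 and *Mgp* from -0.35 to 0.39 for the interaction. The interaction also turned to -0.0279 for *Bgn* after quantile normalization, to 0.56 for *Mgp* with a pseudocount of 0.1 with or without the filter, and to 0.84 for *Fmod* and 0.68 for *Mgp* with voom weights. With a pseudocount of 0.1, alone or without the filter, and with voom weights, 0 members passed the interaction test in place of 1. With each library left out, the members past the threshold were 6 to 7 for the knockdown in medium, 6 to 6 with cytokines, 5 to 6 for the cytokines in shRNA-NC, 4 to 8 in shRNA-*Ddx5* cells and 1 to 2 for the interaction, for which the count over all genes ran from 559 to 1123 against 1016 with all libraries. The counts of 4 arose without replicate 3 in medium or replicate 1 or 2 with cytokines of shRNA-*Ddx5*. The stricter filter removed *Vcan*. The replicate block left 7, 6, 5, 6 and 1 members past the threshold and took the call of *Fmod* upon cytokines in shRNA-*Ddx5* cells (adjusted p = 0.0695). Same-numbered libraries correlated at 0.448, 0.0425 and 0.313 for the knockdown in medium and near or below 0 elsewhere on average, so the numbers were not taken to pair them. The split of higher and lower genes depended on scaling: 3131 and 2686 for the knockdown in medium became 2480 and 3353 after scaling to the sum of fragments. For the cytokines in shRNA-NC cells 2303 and 1878 became 1850 and 2529, or 1815 and 2368 after quantile normalization, and in shRNA-*Ddx5* cells 1671 and 1673 became 1398 and 2183 after quantile normalization. The median of all genes moved by less than 0.1. The cause of these differences was not tested.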
